A study of Mus musculus with 6 samples.

Results

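The lysosome digests proteins, sugar chains, sulfated polymers and lipids that reach it from outside the cell or by autophagy, and 33 genes that encode its enzymes and membrane proteins were followed here in mouse liver. They were taken by gene symbol from a table of 16123 genes, where all 33 were found, and comprise 9 proteases, 10 glycosidases, 3 sulfatases, 6 lipid hydrolases and activator proteins, and 5 membrane proteins. Adult mice trained by running (exercise, 3 libraries) were compared with sedentary mice (3 libraries), in a study of how moderate exercise changes liver metabolism. Each trained mouse had run 22 km in a training period of 6 weeks, and its liver was collected 24 h after training ended, following perfusion with buffered saline. The control label says only that no treadmill training was given. Neither strain, sex nor exact age is stated in these sources, and no genetic change is named for either group.

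Lysosomal hydrolases are made in the endoplasmic reticulum, tagged mostly with mannose 6-phosphate in the Golgi and delivered to an acidic compartment, where many proteases are activated by cleavage. Membrane proteins such as LAMP1 and LAMP2 line the compartment, and the vacuolar ATPase acidifies it. Many of these genes share a DNA element read by the transcription factors TFEB and TFE3, which the kinase complex mTORC1 holds in the cytoplasm while nutrients are plentiful. In liver, lysosomes are abundant both in hepatocytes, where they recycle glycogen, lipid droplets and organelles, and in the resident macrophages, the Kupffer cells.

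The libraries held 17941303 to 18371949 counts. Their spread within a group was close to counting noise, with a common biological coefficient of variation of 1.84%. The design text names 3 mice per group without tying each library to 1 animal, so the p-values measure the spread between these libraries, which may be technical. The share of counts held by the 20 top genes was 29.0% to 29.3% in sedentary and 26.8% to 27.2% in exercise libraries. Which small changes passed, and the sign of some, moved with the scaling. Unless stated otherwise, changes are edgeR fold changes on counts scaled by TMM, a method that sets the bulk of genes to no change, while levels are the deposited FPKM (fragments per kilobase of transcript and per fixed number of fragments). FPKM ran higher in exercise for most genes, by a median of 0.063 on the log2 scale in the limma fit, so a gene can have a slightly higher FPKM and still be lower after TMM. The hepatocyte gene Alb, for albumin, lay between 45729 and 47216 FPKM in sedentary and between 45608 and 46452 FPKM in exercise libraries.

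The changes in lysosomal genes were small, and the share that passed the test was near that of all genes. All 33 had a mean FPKM of at least 1 and were tested. Of these, 5 rose and 8 fell past an adjusted p of 0.05 (edgeR, adjusted over 10266 genes), and 20 did not pass. The 13 changed genes are 39.4% of the members, beside 38.1% of all tested genes. Members that rose made up 15.2%, where 19.1% of all tested genes rose, and members that fell made up 24.2%, where 19% of all tested genes fell. The median log2 fold change of the members was −0.028, beside −0.001 for all tested genes, and every member lay between −0.28 and 0.26. Scarb2, Arsa, Lipa, Ctsh and Tpp1 rose, and Ctsc, Ctsl, Ctsz, Lgmn, Gusb, Naglu, Manba and Arsb fell. None of them passed a test against a change of 1.2-fold, in which 653 of all tested genes did.

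Which members passed the test rested largely on the scaling, and some small changes also changed sign with it. With library totals alone, 12 members rose and 1 fell, and limma on log2(FPKM + 1) gave the same numbers. Of all 10266 tested genes, 3536 rose and 1203 fell with library totals, and 2868 rose and 1099 fell with limma. The 5 members that rose with TMM also rose in both of these fits, and Lgmn was the 1 member that fell in all 3. By deposited FPKM, every exercise library lay above every sedentary library for 14 members (42.4%, beside 36.6% of all tested genes) and below for 3, namely Ctsl, Lgmn and Manba (9.09%, beside 14.3%). By TMM-scaled counts this turned round, with 5 members above (15.2%, beside 23.3% of all tested genes) and 12 of the 33 below. Of all 10266 tested genes, 2429 lay below by that scaling. Counts of the 33 genes together made up 0.501% to 0.504% of the sedentary and 0.527% to 0.530% of the exercise libraries. This share is not particular to them, since with library totals all tested genes had a median log2 fold change of 0.077.

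**Figure D1:**
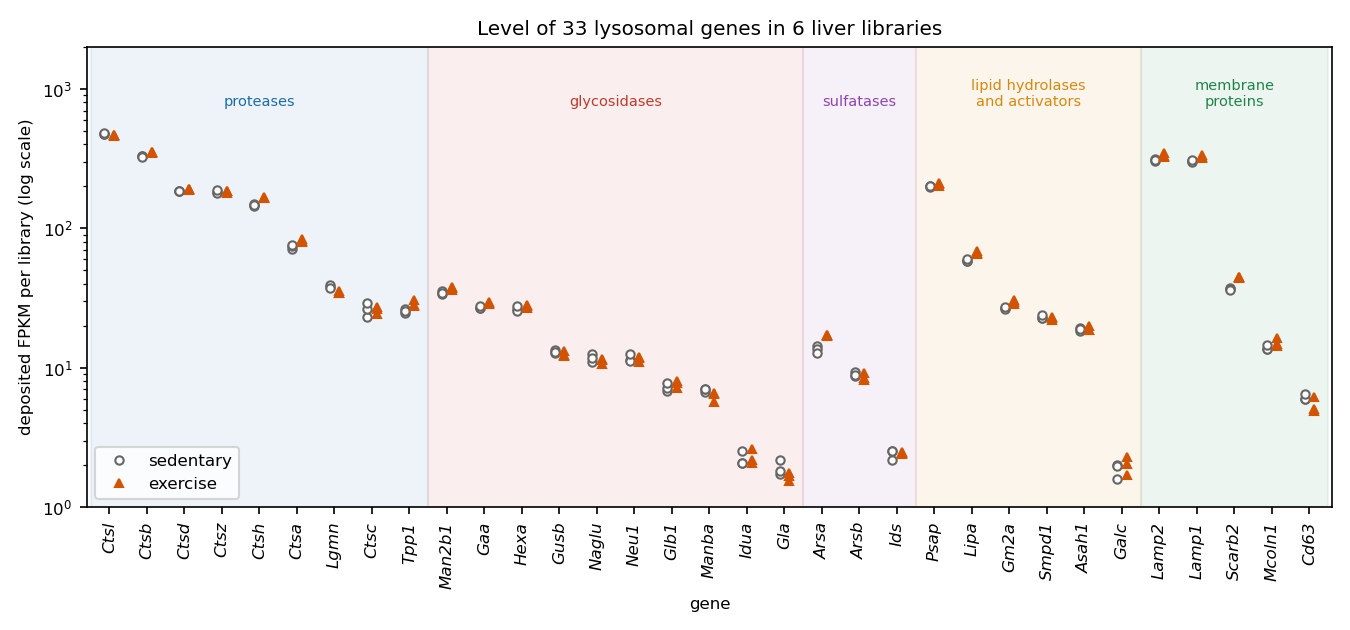
Deposited FPKM (log axis) of the 33 lysosomal genes, grouped by role, in the 3 sedentary (open circles) and 3 exercise (triangles) libraries. Levels run from 1.55 FPKM for Gla to 484 FPKM for Ctsl, and the distance between groups is small beside the distance between genes.

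In both groups the proteases and the 2 LAMP genes held most of the lysosomal message. Ctsl, which encodes the cysteine protease cathepsin L, was the most abundant at 479 ± 4.42 FPKM in sedentary livers (SD, n = 3) and made up 18.03% of the FPKM of all members there. Ctsb (cathepsin B, 329 ± 3.48), Lamp2 (309 ± 5.78) and Lamp1 (305 ± 5.58) followed, and the last 2 did not differ beyond their spread. Psap, Ctsd and Ctsz lay between 183 and 201 FPKM. The glycosidases were far less abundant. Summed over their 10 genes they reached 141 to 146 FPKM per sedentary library, against 1480 to 1499 for the 9 proteases and 666 to 675 for the 5 membrane proteins. At the low end, Galc, Gla, Idua and Ids stood at 1.85 to 2.41 FPKM in sedentary livers, and Cd63 had the fewest reads, 66.3 per sedentary library on average.

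Of the 9 proteases 2 rose (22.2%) and 4 fell (44.4%), beside 19.1% and 19% of all tested genes. The other 3 gave no call, and the median log2 fold change of the proteases was −0.039. Ctsh, which encodes cathepsin H, an aminopeptidase, had 149, 144 and 148 FPKM in the sedentary libraries and 165, 166 and 167 in the exercise libraries. All 3 exercise libraries were higher than all sedentary ones, and the gene rose by 7.20% (95% interval 3.32% to 11.2%, edgeR adjusted p = 0.00203). Tpp1, whose product trims tripeptides from the ends of proteins, had 26.2, 24.9 and 25.4 FPKM in sedentary and 27.5, 30.7 and 28.03 FPKM in exercise libraries. Exercise replicate 2 was the highest of them. Tpp1 rose by 7.14% (adjusted p = 0.036), a call that ended without exercise replicate 2 (log2 fold change 0.049, adjusted p = 0.377), without sedentary replicate 2 or 3, and with DESeq2.

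Lgmn, which encodes legumain, an asparaginyl endopeptidase that cleaves and activates cathepsins, went from 37.8, 39.1 and 37.1 FPKM in sedentary to 34.4, 35.8 and 34.2 FPKM in exercise libraries. The groups did not overlap, and Lgmn fell by 13.1% (95% interval −17.7% to −8.28%, edgeR adjusted p = 3.33e-05). Without TMM its log2 fold change was −0.13 (adjusted p = 0.00757). Ctsl had 476, 477 and 484 FPKM in sedentary and 471, 461 and 469 FPKM in exercise libraries, again without overlap. It fell by 7.49% with TMM (adjusted p = 2.16e-05), but its log2 fold change without TMM was −0.035 and did not pass (adjusted p = 0.17).

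Ctsc, which encodes the dipeptidyl peptidase that activates serine proteases of leukocyte granules, fell by 9.76% (edgeR adjusted p = 0.000761), although its FPKM overlapped, at 23.1, 26.3 and 29.3 in sedentary and 27.1, 24.1 and 26.2 in exercise libraries. Its TMM-scaled counts (CPM) were tighter, 93.2 to 101 in sedentary and 83.4 to 89.6 in exercise libraries, without overlap. Ctsz, the carboxypeptidase cathepsin Z, fell by 4.66% (adjusted p = 0.0407), and the 2 groups had the same mean FPKM within their spread, 183 ± 5.51 and 184 ± 3.85 (SD, n = 3). The call for Ctsz was lost in 5 of the 6 fits that left out 1 library, and its log2 fold change without TMM was 0.009 (adjusted p = 0.813). Ctsa, Ctsb and Ctsd, which encode a carboxypeptidase that also protects 2 glycosidases, cathepsin B and the aspartic protease cathepsin D, did not pass. Their changes were 4.82% (95% interval 0.456% to 9.38%, adjusted p = 0.0743), 0.635% (−2.25% to 3.61%) and −2.70% (−5.88% to 0.592%). Without TMM, Ctsa and Ctsb rose (adjusted p = 0.000105 and 0.000512).

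**Figure D2:**
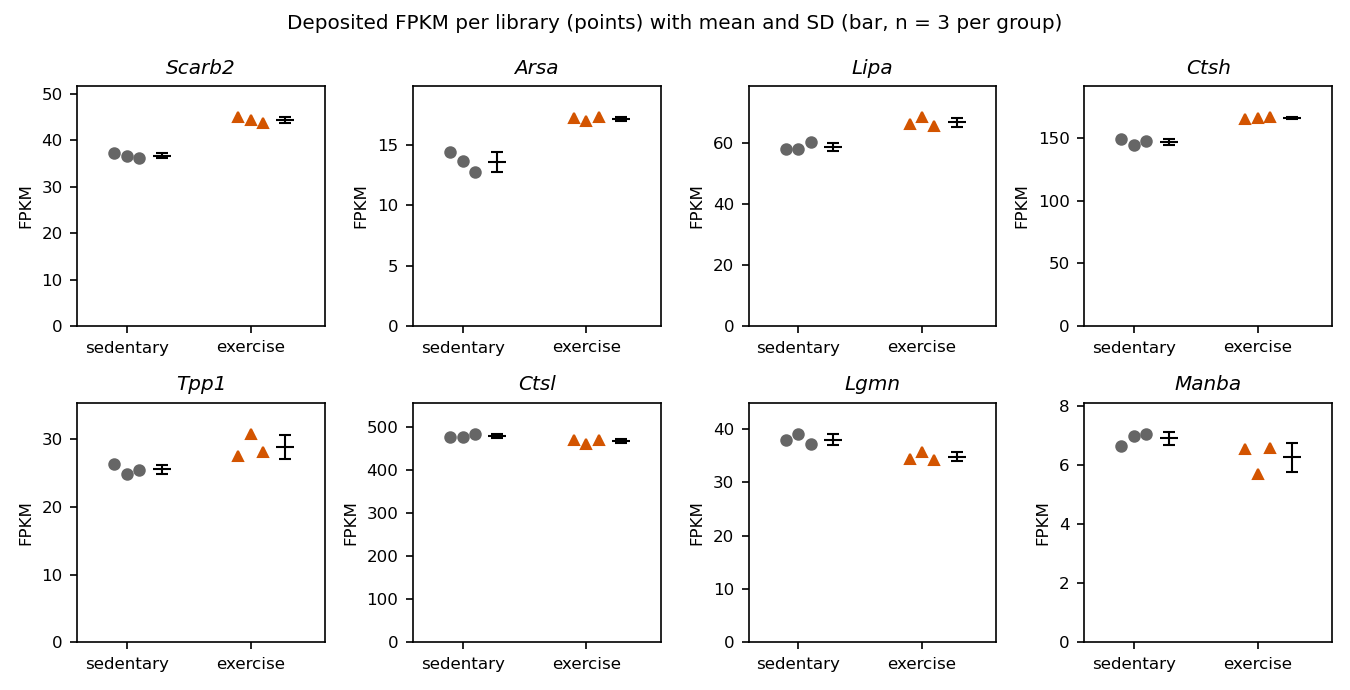
Deposited FPKM of 8 lysosomal genes in each library, sedentary (circles) and exercise (triangles), with the mean and SD of 3 libraries beside the points and axes that start at 0. Scarb2, Arsa, Lipa, Ctsh and Tpp1 lie higher in all exercise libraries than in any sedentary one, and Ctsl, Lgmn and Manba lie lower. All 3 members that lie lower by FPKM are shown (9.09%, beside 14.3% of all tested genes). The 14 that lie higher (42.4%, beside 36.6%) are shown only in part. By TMM-scaled counts 1 protease lies higher in this way, so Ctsh and Tpp1 do not both do so.

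Glycosidases strip sugars from glycoproteins, glycogen, glycolipids and glycosaminoglycans. Of these genes none rose, 3 fell and 7 gave no call (median −0.074). The falls were 30% of them, beside 19% of all tested genes, of which 19.1% rose. Manba, the beta-mannosidase gene, went from 6.65, 7 and 7.06 FPKM in sedentary to 6.53, 5.70 and 6.57 FPKM in exercise libraries and fell by 13.9% (95% interval −21.0% to −6.18%, edgeR adjusted p = 0.0043). Exercise replicate 2 was the lowest library, and without it the log2 fold change of Manba was −0.15 (adjusted p = 0.0657). Naglu, which acts on heparan sulfate, fell by 9.65% (adjusted p = 0.0416) and Gusb, the beta-glucuronidase gene, fell by 8.96% (adjusted p = 0.0479). Both had overlapping FPKM, both calls were lost in 4 of the 6 fits without 1 library, and neither passed without TMM (adjusted p = 0.351 and 0.416). With DESeq2 none of the 3 glycosidase falls passed.

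The other 7 glycosidases gave no call with TMM. Gaa, which encodes the acid alpha-glucosidase that degrades glycogen in the lysosome, stood at 27.2 ± 0.492 and 29.1 ± 0.429 FPKM (SD, n = 3), a TMM log2 fold change of 0.029 (95% interval in percent −2.68% to 6.90%). Man2b1, an alpha-mannosidase, changed by 1.65% (−2.55% to 6.03%). Without TMM both rose (adjusted p = 0.00857 and 0.00568). Hexa and Glb1, which encode a hexosaminidase subunit and the beta-galactosidase, changed by −1.46% and 0.185%, with intervals of −7.39% to 4.86% and −9.53% to 10.9%. Neu1, the sialidase gene, had a log2 fold change of −0.092 (adjusted p = 0.135). Gla, the alpha-galactosidase gene, and Idua, the alpha-iduronidase gene, had so few reads (95 and 122 per sedentary library) that their intervals reached from −31.0% to −1.05% and from −17.6% to 12.2%, and neither passed (adjusted p = 0.0891 and 0.725).

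The sulfatases parted. Arsa, which encodes arylsulfatase A, the enzyme that removes sulfate from sulfatide, had 14.4, 13.7 and 12.8 FPKM in the sedentary libraries and 17.2, 17.0 and 17.3 in the exercise libraries. The exercise libraries were all higher, and Arsa rose by 19.6% (95% interval 12.4% to 27.1%, edgeR adjusted p = 4.87e-06), the largest rise of the 33 genes. Arsb, whose product removes sulfate from dermatan and chondroitin sulfate, went from 9.33, 8.75 and 8.93 FPKM to 8.16, 8.50 and 9.16 FPKM, with overlap. By TMM-scaled counts it fell by 9.36% (adjusted p = 0.0276), which was lost in 3 of the 6 fits without 1 library, with DESeq2 and without TMM (adjusted p = 0.329). Ids, the iduronate sulfatase gene, changed by −3.70% (−14.6% to 8.65%).

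Among lipid hydrolases and their activators 1 rose (16.7%, beside 19.1% of all tested genes), none fell and 5 gave no call (median 0.011). Lipa, which encodes the acid lipase that splits cholesteryl esters and triglycerides in the lysosome, had 58.2, 58.1 and 60.3 FPKM in sedentary and 66.5, 68.6 and 65.8 FPKM in exercise libraries. The groups did not overlap, and Lipa rose by 7.89% (95% interval 3.69% to 12.3%, edgeR adjusted p = 0.00176). Gm2a, which encodes the activator that presents ganglioside GM2 to hexosaminidase, changed by 5.17% (0.575% to 9.97%, adjusted p = 0.0683) and rose without TMM (adjusted p = 0.000134). Smpd1, the acid sphingomyelinase gene, changed by −6.89% (−12.3% to −1.15%), just outside the threshold (adjusted p = 0.0529), and Asah1, the acid ceramidase gene, by −3.37% (−9.70% to 3.40%). Psap, the precursor of 4 sphingolipid activator proteins called saposins, was at 201 ± 1.46 and 207 ± 4.65 FPKM (SD, n = 3), a TMM change of −1.94% (−4.95% to 1.17%). Galc, a galactosidase of glycolipids, had a log2 fold change of 0.049 (SE 0.12), and it was the 1 member whose counts were not whole in some library.

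Of the membrane proteins 1 rose (20%, beside 19.1% of all tested genes), none fell and 4 gave no call (median 0.017). Scarb2 encodes LIMP-2, which carries beta-glucocerebrosidase to the lysosome without the mannose 6-phosphate tag. It had 37.3, 36.7 and 36.2 FPKM in sedentary and 45.0, 44.5 and 43.8 FPKM in exercise libraries. Every exercise library was higher, and Scarb2 rose by 14.7% (95% interval 10.4% to 19.1%, edgeR adjusted p = 5.96e-08), the smallest p of the 33 genes. The abundant LAMP genes did not follow it. Lamp1 changed by 1.07% (−2.04% to 4.28%) and Lamp2, also needed for chaperone-mediated autophagy, by 1.18% (−1.92% to 4.39%), so the TMM intervals of both end below the lower bound of Scarb2. Without TMM both LAMP genes rose (log2 fold changes 0.093 and 0.095, adjusted p = 0.000441 and 0.000426), still below Scarb2 at 0.28. Mcoln1, the calcium channel TRPML1, changed by 3.54% (−4.62% to 12.4%), and the tetraspanin gene Cd63 by −16.9% (−32.6% to 2.59%, adjusted p = 0.163) at 4.91 to 6.43 FPKM over the 6 libraries.

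**Figure D3:**
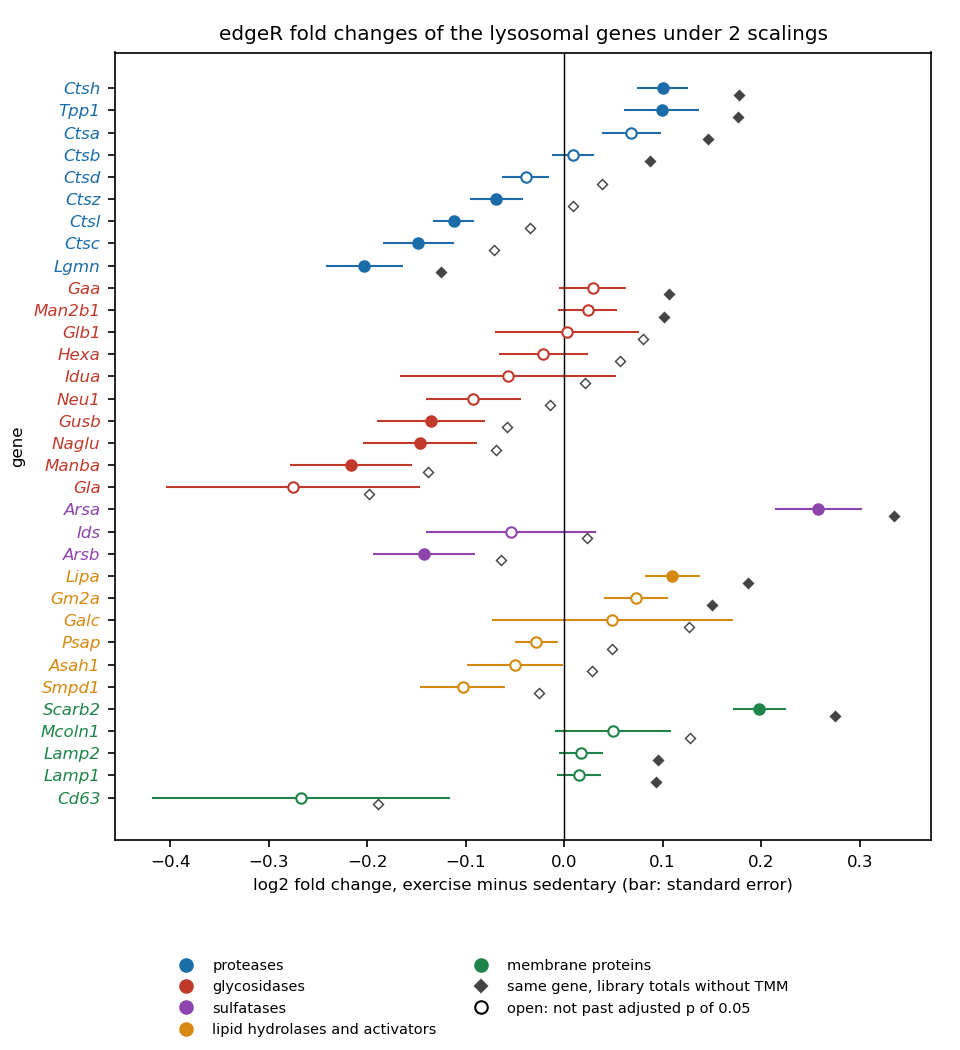
Log2 fold change of each lysosomal gene, exercise minus sedentary, with TMM (circles with standard error, coloured by role) and with library totals alone (diamonds), where filled symbols passed an adjusted p of 0.05. Values without TMM lie about 0.078 higher for every gene, so 7 of the 8 falls do not pass without TMM while the 5 rises and the fall of Lgmn pass with both.

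Ratios between 2 members within a library do not depend on the scaling of that library, and 5 pairs, chosen after their values were seen, are given without a test. The FPKM ratio of Scarb2 to Lamp1 was 0.122, 0.122 and 0.116 in sedentary and 0.141, 0.133 and 0.136 in exercise libraries, a mean 13.6% higher. The ratio of Arsa to Arsb was 1.55, 1.56 and 1.43 in sedentary and 2.11, 2 and 1.89 in exercise libraries, 32.1% higher. These 2 pairs set a called rise against a gene of the same role group, where Lamp1 gave no call and Arsb was called lower with TMM. The ratio of Ctsh to Lgmn was 3.69 to 3.99 in sedentary and 4.65 to 4.88 in exercise libraries, and that of Ctsh to Ctsl was 0.303 to 0.313 and 0.351 to 0.361. For Lipa to Manba it was 8.30 to 8.75 and 10 to 12. In none of the 5 pairs did the groups overlap. For Ctsh to Lgmn, Ctsh to Ctsl and Lipa to Manba this was certain beforehand. The FPKM of each of these genes already parted the groups, in opposite directions within each pair.

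Some calls held with any 1 library left out and others did not. Scarb2, Arsa, Lipa, Ctsh, Lgmn, Ctsl and Ctsc, 7 of the 13, were called the same way in all 6 such fits. Of these, Ctsl and Ctsc did not pass without TMM (adjusted p = 0.17 and 0.107) or with limma on log2(FPKM + 1) (adjusted p = 0.16 and 0.881). The count of members that fell went from 8 to 4 without sedentary replicate 1 or exercise replicate 1, to 5 without sedentary replicate 3 or exercise replicate 2, to 6 without exercise replicate 3 and to 9 without sedentary replicate 2. The count that rose stayed between 4 and 6.

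Promoters are shown because many lysosomal genes are known to carry the letters CACGTG, with TCACGTGA as the core of the element read by TFEB. Windows of 300 bases, 250 before to 50 after each start, were available from RefSeq (GRCm38.p6) for 30 of the 33 genes, all except Ctsb, Ctsh and Asah1. Both motifs are palindromes, so a match counts for both strands, and each longer match contains the shorter one. The shorter motif was found in 11 of the 30 genes (36.7%), beside 8.09% of 27025 genes in the same table. The longer one was found in 4, namely Ctsa, Ctsd, Gla and Mcoln1 (13.3%), beside 1.12% of all genes. Sites with the motif in capitals, 5′ to 3′ on the strand of the gene, are these for a membrane protein with repeated matches, for 3 genes with the longer motif and for a gene that rose and one that fell:
Lamp1, chr8:13159088-13159160, plus strand: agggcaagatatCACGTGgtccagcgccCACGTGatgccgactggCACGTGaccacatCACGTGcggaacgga
Mcoln1, chr8:3500462-3500491, plus strand: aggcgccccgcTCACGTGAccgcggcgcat
Ctsd, chr7:142387908-142387937, minus strand: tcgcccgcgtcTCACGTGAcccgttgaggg
Gla, chrX:134601182-134601211, minus strand: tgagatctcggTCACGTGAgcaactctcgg
Arsa, chr15:89477425-89477452, minus strand: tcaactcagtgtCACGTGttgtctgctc
Lgmn, chr12:102439124-102439153, minus strand: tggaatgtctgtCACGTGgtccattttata

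The Lamp1 stretch holds 4 matches within 61 bases of the gene start and overlaps no exon of the GENCODE annotation. The sites of Arsa and Ctsd, and a stretch of 56 bases that holds the Mcoln1 site, overlap a GENCODE exon of the same gene. A stretch of 63 bases that holds the Gla site overlaps an exon of the neighbouring gene Hnrnph2. The Lgmn site lies before the second of its 2 RefSeq starts. Matches were found in members of either direction, and with so few genes a link between match and direction was not tested. Of the 5 members that rose Arsa had a match, Lipa, Scarb2 and Tpp1 had none in these windows, and Ctsh had no window. Of the 8 that fell Ctsl, Lgmn and Naglu had one. The other 7 genes with a match, among them Lamp1 and Mcoln1, did not pass the test.

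Other lysosomal genes, from lists that hold none of the 33, had more falls than rises in total with TMM. Without it, of these 6 lists only the other membrane proteins had more falls than rises, and the sorting genes had as many of each. With TMM, of 124 tested genes in the 6 lists 8 rose (6.45%) and 31 fell (25.0%), beside 19.1% and 19% of all tested genes. Their median log2 fold change was −0.034. Among 40 other hydrolases 2 rose (5%) and 14 fell (35%). Creg1, a lysosomal glycoprotein, rose (log2 fold change 0.26, SE 0.02, edgeR adjusted p = 1.26e-12), going from 139 ± 1.87 to 175 ± 1.61 FPKM (SD, n = 3). Arsg, a sulfatase, and Acp2, the lysosomal acid phosphatase gene, fell (−0.46 and −0.31). Without TMM this list had 9 members higher and 7 lower, and with DESeq2 it had 2 higher and 7 lower.

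Among 31 other membrane proteins 2 rose (6.45%) and 10 fell (32.3%). Slc36a1, an amino acid exporter of lysosomes, went from 9.65 ± 0.176 to 6.94 ± 0.215 FPKM (SD, n = 3) and fell (log2 fold change −0.553, edgeR adjusted p = 2.78e-14), as did the potassium channel gene Tmem175 (−0.595), while Tmem106b rose (0.23). Without TMM 5 rose and 6 fell, and with DESeq2 1 rose and 6 fell. The vacuolar ATPase had 2 of 18 subunits lower, Atp6v0a1 (−0.24) and Atp6v1b2 (−0.16), and none higher. Atp6v0a2 did not pass (0.10, adjusted p = 0.0997). Without TMM 8 subunits rose and 1 fell, so no direction can be given for the pump.

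Genes that sort enzymes to the lysosome had 1 of 15 members higher and 3 lower. Sort1, the sorting receptor sortilin, fell (log2 fold change −0.46, edgeR adjusted p = 3.08e-10), as did Gnptab, which makes the mannose 6-phosphate tag (−0.32), and Cln8, which exports hydrolases from the endoplasmic reticulum, rose (0.33). Without TMM 2 rose and 2 fell. Of 18 tested genes of TFEB and mTORC1 control 2 rose and 2 fell. Flcn and Fnip2, which form the folliculin complex, rose (0.15 and 0.17), and Tsc1, an inhibitor of mTORC1, fell (−0.14). Without TMM 6 rose and none fell, and with DESeq2 none of the 18 passed. Tfeb had 3.57, 3.46 and 3.04 FPKM in sedentary libraries and 3.59, 3.98 and 3.65 in the exercise group, and it did not pass (0.083, SE 0.11, adjusted p = 0.577), nor did Tfe3 (0.082, adjusted p = 0.254). Mitf was below the limit for testing, at 0.780 and 0.920 FPKM. Of 2 tested cathepsin inhibitor genes, Cst3, for cystatin C, rose (0.15, adjusted p = 0.000179) and Cstb did not pass (0.15, adjusted p = 0.0528).

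**Figure D4:**
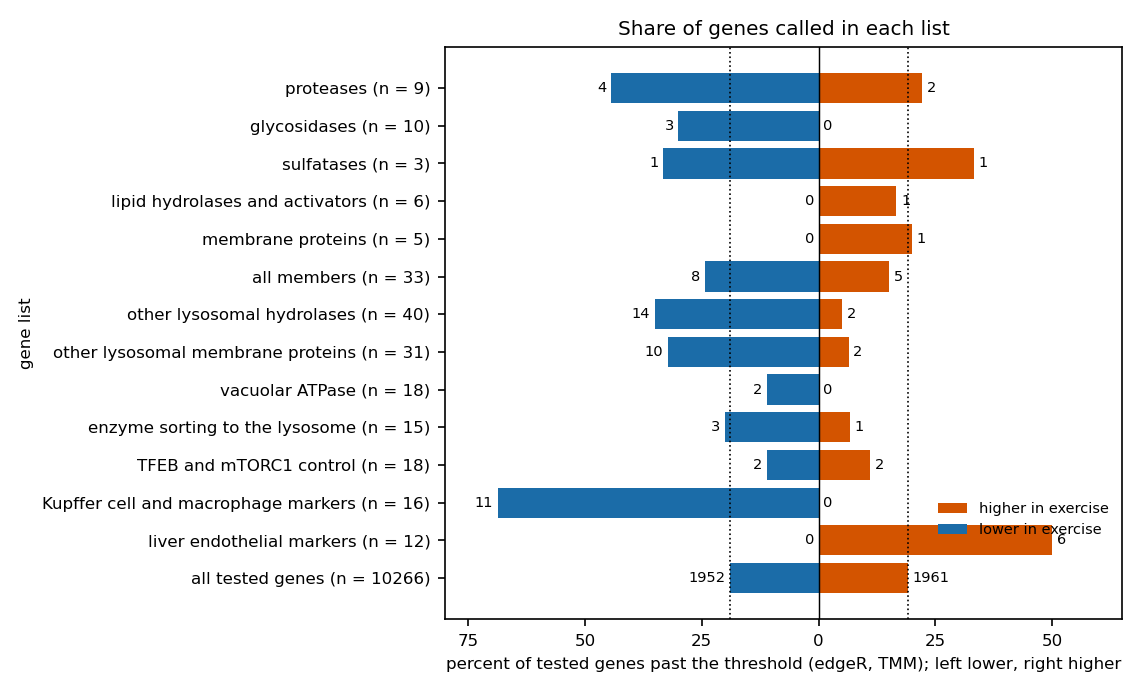
Percent of tested genes that fell (left, blue) or rose (right, orange) past an adjusted p of 0.05 with TMM, for each role among the 33 lysosomal genes, for other lysosomal lists and for 2 cell type lists, with counts at the bar ends and dotted lines at the values of all 10266 tested genes (19% and 19.1%). The 33 genes together sit near those lines, with 8 lower and 5 higher.

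Cell type markers moved in the same libraries. Of 16 Kupffer cell and macrophage markers 11 fell (68.8%, beside 19% of all tested genes) and none rose, with a median log2 fold change of −0.26. Their summed level was 534 to 550 FPKM in sedentary and 464 to 473 FPKM in exercise libraries. Mpeg1 (−0.67), Cd5l (−0.40) and Marco (−0.92) had the smallest p of the list, and no marker of it was at 0. Without TMM 10 fell and 1 rose. Ctss, the cathepsin typical of antigen-presenting cells, also fell, from 37.5 ± 0.981 to 32.1 ± 2.41 FPKM (SD, n = 3, log2 fold change −0.30, edgeR adjusted p = 4.48e-06). It and Cd68, a macrophage lysosomal protein (−0.28, adjusted p = 0.0129), are named after their values were seen. Of 12 liver endothelial markers 6 rose (50%, beside 19.1% of all tested genes) and none fell. Their summed levels were 143 to 144 and 160 to 168 FPKM, and without TMM all 12 rose, with DESeq2 3. Of 8 tested stellate cell markers 4 rose (50%) and 1 fell (12.5%), and their sums were 97.9 to 100.1 and 122 to 123 FPKM. In whole liver, fewer cells of a type and less message per cell cannot be told apart, and the part of these shifts in the changes of the 33 genes was not tested.

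Of the other marker lists, the 10 hepatocyte genes had 6 higher (60%) and 3 lower (30%), beside 19.1% and 19% of all tested genes. Without TMM they had 7 higher and none lower, where 3536 and 1203 of all 10266 tested genes were called. The neutrophil and lymphocyte lists had 3 and 2 tested genes, none past the threshold, with sums of 9.79 to 18.2 and 5.59 to 6.45 FPKM over both groups. Ly6g, Mpo and Cxcr2, defining neutrophil genes, were at or below 0.093 FPKM on average in either group. Of 2 tested cholangiocyte markers Spp1 fell (log2 fold change −1.07) and the other did not pass (−0.31). The rest of the 6 listed were below the limit for testing. The list, with Spp1 in it, summed to 63.0 to 65.6 FPKM in sedentary and 32.7 to 34.6 FPKM in exercise libraries. Their part in the lysosomal changes was not tested.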

How the data were processed

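Liver RNA was read in 6 libraries, 3 per group, matched to samples by the description in the labels and to groups by the treatment label. Per the labels' protocols, poor or short reads were removed. The submitters' processing notes name GRCm38.p6 as build, with cutadapt, MultiQC and featureCounts among the tools. The aligner, annotation and tool versions are not stated there, nor whether counting used strand, so reads of overlapping genes cannot be told apart. The deposited FPKM values were made by the authors and taken as they are. The deposited counts are estimated counts, not whole for 1165 of 16123 genes, and were rounded.

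The 10266 genes whose mean FPKM reached 1 were compared with edgeR 4.0.16 (R 4.3.3) by the two-sided quasi-likelihood test with TMM scaling, a prior count of 0.125 and Benjamini-Hochberg adjustment, at a threshold of 0.05. Standard errors are the log2 fold change over the square root of F, and 95% intervals use the fit's degrees of freedom and are not adjusted. Coordinates are from RefSeq, GRCm38.p6. Alternatives, 17 in number, covered scaling, tool (DESeq2 1.42.0, limma 3.58.1), filters, a replicate block and each library left out. In data simulated for exercise against sedentary over 10266 genes, 50 were changed at each fold, without the difference in top genes between groups. There edgeR recovered 24% of genes changed 1.1-fold, 72% at 1.25-fold, 90% at 1.5-fold and 100% at 2-fold. Of its calls 3.38% were unchanged genes. Far fewer genes were changed there than were called in the real data, and scaling error was not simulated. These shares therefore need not hold for the calls given here. The 33 genes and the other lists were chosen with earlier results of these data known. The text names all 33, the 3 genes with the smallest p of each lysosomal list and of the macrophage markers, and Tfeb, Tfe3 and Mitf. Genes named outside this rule are marker examples or are said to be so.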

Additional observations from a re-analysis of the deposited data

How the results depend on the processing

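Against 5 members higher, 8 lower and 3913 genes called in all, the counts were 12 and 1 with library totals, 12 and 1 with limma at either pseudocount, 7 and 4 with totals without the 20 most abundant genes, 4 and 4 without a filter, 4 and 3 (2512 genes called) with DESeq2, 0 and 0 against a 1.2-fold change (653) and 0 and 0 for 1 summed library per group at an assumed variation of 0.1 (176), a setting too wide to pass changes of the members' size. With 1 library left out, 4 to 6 rose and 4 to 9 fell. The replicate numbers in the titles do not pair the samples (correlations of same-numbered libraries −0.031 to −0.016, none best with its own number), and with the replicate block the counts were 5 and 8 with 3846 genes called.

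The median of the members turned positive with library totals (0.049), with totals without the 20 most abundant genes (0.006) and with limma (0.046 and 0.047 at pseudocounts of 1 and 0.1). Of single genes, those that changed sign had, with library totals, Ctsd 0.038, Ctsz 0.009, Hexa 0.057, Idua 0.021, Ids 0.023, Asah1 0.028 and Psap 0.049. With limma at a pseudocount of 1 they had Ctsd 0.034, Ctsz 0.004, Hexa 0.051, Idua 0.026, Ids 0.024, Asah1 0.022 and Psap 0.046, and at 0.1 Ctsd 0.034, Ctsz 0.004, Hexa 0.053, Idua 0.035, Ids 0.034, Asah1 0.023 and Psap 0.047. Without the 20 most abundant genes in the totals, Hexa had 0.014 and Psap 0.006. At a mean FPKM of at least 5 Glb1 had −0.004. With 1 library left out, the sign changed within the ranges of Glb1 (−0.039 to 0.058), Galc (−0.063 to 0.172), Hexa (−0.05 to 0.012), Idua (−0.109 to 0.042), Lamp1 (−0.005 to 0.034), Lamp2 (−0.008 to 0.037) and Mcoln1 (−0.007 to 0.09). Of these genes Ctsz alone had passed with TMM. Calls that ended with 1 library left out were those of Ctsz, Gusb, Naglu, Arsb, Manba and Tpp1. The shift between scalings follows from their construction, and the cause of other lost calls was not tested. Promoter matches before the gene start alone gave the same 11 and 4 genes. Members with a mean of under 130 reads per library in both groups (Cd63, Gla, Galc and Idua) had standard errors of 0.11 to 0.15, so changes of the size seen in other members were not detectable for them.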
